A study of Mus musculus with 65 samples.

Results

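Stromal cells that carry the Ng2-RFP reporter were compared with stromal cells sorted for the leptin receptor, both from mouse femur and tibia in homeostasis. The comparison used 10 of the 65 RNA sequencing libraries of the series, 4 from Ng2-RFP cells and 6 from Lepr cells, and took in every gene with 3 or more niche libraries at or above 1 FPKM. FPKM are fragments scaled by transcript length and by the mapped fragments of a library. These were 18972 of the 44381 genes listed for the niche cells. Per the labels, bone and bone marrow cells were released by enzymes, stained and sorted as negative for CD45 (white blood cells), Ter119 (red cells) and CD31 (endothelium), and then as Ng2-rfp+ or as Lepr+. The labels give no drug treatment, strain, sex or age for these groups, do not say which allele drives the RFP or whether it marks present or past promoter activity, and do not say whether replicates were separate animals. The p-values therefore measure the spread between libraries within groups, which may be technical. That spread was estimated over all 42 libraries of the 10 niche populations, not from these 10 libraries alone.

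NG2 is a cell-surface proteoglycan, encoded by Cspg4, that is known from pericytes around small vessels and is also carried by cells of the bone and cartilage lineages and by some glial precursors. The leptin receptor marks stromal cells around marrow sinusoids in the mouse, which are known as main sources of the chemokine CXCL12 and of Kit ligand for blood stem cells and as precursors of marrow fat cells and bone cells. Osteoblasts lay down collagen type I and osteocalcin, and growth plate chondrocytes make collagen types II, IX, X and XI.

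The transcripts of both sorting markers followed the labels and are given as a check. Cspg4 had 17.1, 11.9, 11 and 15.2 FPKM in the Ng2-RFP libraries and 0 to 0.043 FPKM (median 0.009) in the Lepr libraries. Lepr had 48.9, 38.1, 42.1 and 46.4 FPKM in Ng2-RFP cells, against a lowest value of 663, a median of 801 and a highest value of 988 FPKM in Lepr cells. Neither gene overlapped between the groups, but Lepr transcript was not absent from Ng2-RFP cells. The transcripts of 2 surface proteins used to remove other cells were low in both groups. Ptprc (CD45) was at 6.59 ± 2.48 FPKM (SD, n = 4) in Ng2-RFP and 5.24 ± 1.44 FPKM (SD, n = 6) in Lepr libraries, and Pecam1 (CD31) at 1.15 ± 0.252 and 2.01 ± 1.15 FPKM. Neither was called by limma, with adjusted p = 0.68 and 0.084, but Pecam1 was lower in Ng2-RFP cells when Lepr replicate 1 was left out (-0.52, adjusted p = 0.032).

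FPKM keep no absolute depth. The most common ratio of low FPKM between pairs of libraries, taken gene by gene, put the relative depths of the 10 libraries within 2.36-fold of each other. These estimates matched 73.3% of the pairs of these libraries within 0.1 on the log2 scale. At least 1 FPKM was reached by 13900 to 14066 genes in Ng2-RFP and 12999 to 13321 genes in Lepr libraries. The 10 highest genes held 67.1% to 72.8% of the summed FPKM in Ng2-RFP and 33.0% to 60.4% in Lepr libraries. Pearson's r over log2(FPKM + 1) was 0.914 to 0.944 between Ng2-RFP libraries, 0.907 to 0.943 between Lepr libraries and 0.832 to 0.848 across the groups, all across genes, which are not independent. No 2 libraries held identical values. Lepr replicate 3 stood apart in megakaryocyte transcripts: the 18 megakaryocyte markers summed to 7374 FPKM there, against at most 100.5 FPKM in the other Lepr libraries and 80.3 to 116 FPKM in Ng2-RFP libraries. Without it 5705 genes were called in place of 5734. One sex-linked transcript separated the groups and another did not. Xist, made from the inactive X chromosome of females, had 6.05, 3.53, 4.02 and 5.25 FPKM in Ng2-RFP and at most 0.177 FPKM in Lepr libraries, while the Y-linked gene Ddx3y had 13.8 to 21.1 and 14.1 to 26.0 FPKM and was not called. The part of sex in the results was not tested.

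Differences below are Ng2-RFP minus Lepr in log2(FPKM + 1), each followed by its standard error (SE). That scale understates the change of low genes. A call means an adjusted p below 0.05 from limma with Benjamini-Hochberg adjustment. By this rule 5734 of the 18972 genes, 30.2%, were called. Of all genes tested, 3052 (16.1%) were higher in Ng2-RFP cells and 2682 (14.1%) lower. A difference of at least 1 was reached by 1519 of the former and one of at most -1 by 1181 of the latter, while the median over all tested genes was 0.01. No library of one group overlapped the other group for 26.7% of tested genes. Genes listed at 0 in every Lepr library are given as levels, with no fold. Gene lists and their members were chosen with earlier results of these data known. Their counts, medians and order below are therefore descriptions, not tests. Because these are bulk samples, fewer cells of a type and less RNA per cell cannot be told apart.

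**Figure D1:**
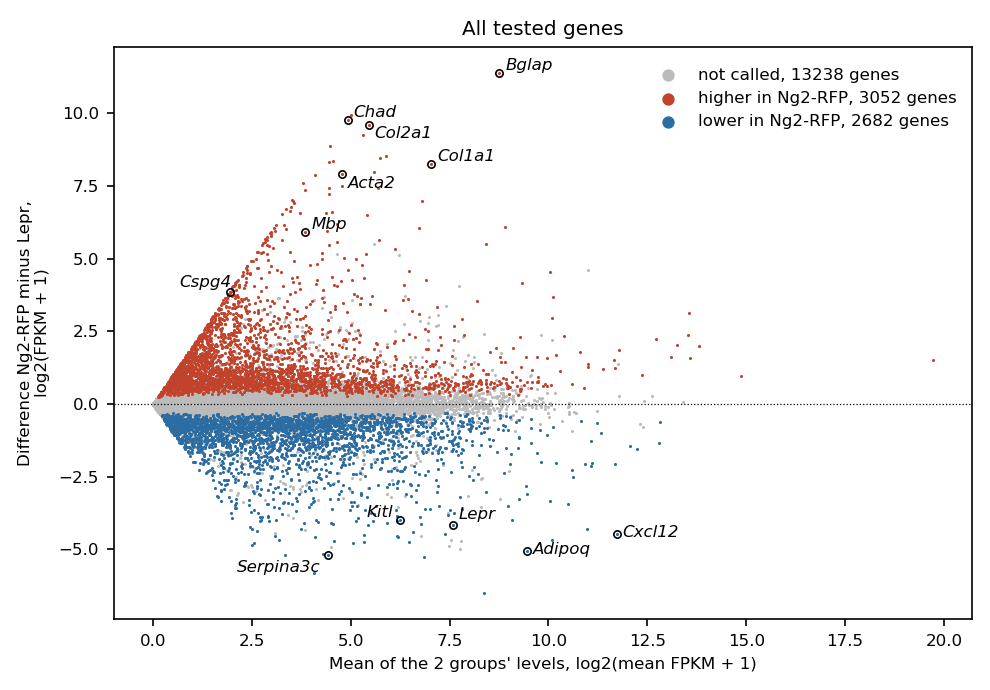
Each point is 1 of the 18972 tested genes. The horizontal axis is the mean of both groups' levels on the log2(mean FPKM + 1) scale and the vertical axis the difference Ng2-RFP minus Lepr, with the 3052 genes called higher in red, the 2682 called lower in blue and the rest in grey. Bglap lies highest at 11.39, and Adipoq and Cxcl12 lie among the lowest of the abundant genes at -5.06 and -4.48.

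The genes of bone matrix were far higher in Ng2-RFP cells. Of 26 tested members of the osteoblast matrix and mineralization list, 22 were higher and 1 lower, with a median difference of 3.72. Bglap, which encodes osteocalcin and lies at chr3:88383501-88384464 in mm10, had 19529, 20923, 24334 and 20821 FPKM in Ng2-RFP cells and 2.77 to 13.3 FPKM (median 8.03) in Lepr cells. The difference was 11.39 ± 0.70 (adjusted p = 7e-16), the largest of any called gene. Bglap2 and Bglap3 are near-identical copies of it whose reads can be shared, so the split between the 3 genes is uncertain. They were higher by 8.53 ± 0.52 and 7.22 ± 0.23.

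The chains of collagen type I moved with osteocalcin. Col1a1 (chr11:94936224-94953042) had 2492, 1896, 2396 and 2326 FPKM in Ng2-RFP libraries against 5.06 to 8.95 FPKM (median 5.41) in Lepr libraries, a difference of 8.28 ± 0.29 (adjusted p = 5e-23). Col1a2 was at 5041 ± 299 FPKM against 218 ± 33.1 FPKM, so that Lepr cells kept a measurable level of the second chain. Both genes separated the groups without overlap.

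Genes of mineral formation were higher as well. Ifitm5, a membrane protein of osteoblasts, had 726 ± 37.9 FPKM in Ng2-RFP and 2.15 ± 1.46 FPKM in Lepr cells, a difference of 7.99 ± 0.45 (adjusted p = 7e-17). An exon of Gm45717 overlaps it on the same strand, so its FPKM may be shared. Smpd3, the neutral sphingomyelinase needed for normal bone mineralization in the mouse, had 52.7, 52.5, 49.9 and 52.8 FPKM against 0.15 to 0.352 FPKM. Phospho1, a phosphatase of matrix vesicles, was at 15.1 against 0.194 FPKM, and Alpl, the alkaline phosphatase of bone, at 271 ± 50.6 against 22.8 ± 7.57 FPKM. All 4 were called. Among genes best known from osteocytes, Dmp1 differed by 5.97 ± 0.32, Mepe by 3.24 ± 0.20 and Phex by 1.49 ± 0.21.

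Not every bone gene was higher. Ibsp, bone sialoprotein, had 3982 ± 239 FPKM in Ng2-RFP and 6436 ± 1048 FPKM in Lepr libraries, and its groups did not overlap, yet it was not called (adjusted p = 0.32), though it was when only these 10 libraries entered the fit (adjusted p = 0.0065). Spp1, osteopontin, was abundant in both, at 19630.0 ± 1011 and 4809 ± 312 FPKM, and was higher in Ng2-RFP cells by 2.03 ± 0.21. Cdh11, a cadherin of osteoblasts and stromal cells, was the member that was lower, at 82.3 ± 9.63 against 196 ± 19.3 FPKM (-1.24 ± 0.20, adjusted p = 4.1e-06). Tnc, a matrix glycoprotein, and Enpp1, which makes pyrophosphate, were not called, but Tnc was in the fit of these 10 libraries alone (adjusted p = 0.047). Kcnk1, a potassium channel of the list, was at 23.8 ± 2.87 against 0.0752 ± 0.0854 FPKM.

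The transcription factors of bone formation differed unevenly. Of 15 tested, 10 were higher, 1 lower and 4 not called, with a median difference of 0.85. Sp7, osterix, had 38.3, 34.0, 32.9 and 36.1 FPKM in Ng2-RFP and 4.54 to 7.31 FPKM (median 5.63) in Lepr cells, a difference of 2.43 ± 0.20 (adjusted p = 1.8e-12). Mef2c differed by 3.63 ± 0.23 and Dlx3 by 3.13 ± 0.15. Runx2, the factor upstream of Sp7 in the bone lineage, was at 47.0, 41.8, 49.6 and 45.9 FPKM against 40.2 to 48.3 FPKM (median 43.4). Its groups overlapped and the difference was 0.08 ± 0.17 (adjusted p = 0.79), with both populations at a similar level. Twist2, a repressor of osteoblast maturation in the mouse, was the member that was lower, at 1.59 ± 0.303 against 8.77 ± 2.85 FPKM.

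**Figure D2:**
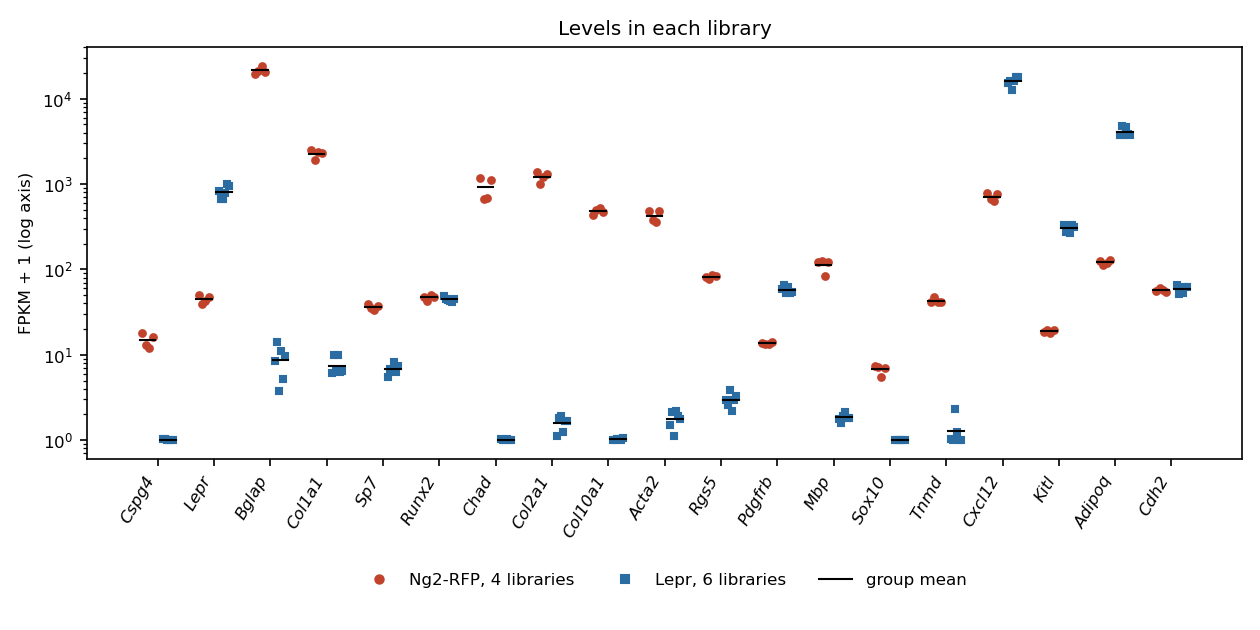
FPKM + 1 on a log axis in every library for 19 genes, with Ng2-RFP libraries as red circles, Lepr libraries as blue squares and the group mean as a black bar. Most of the bone, cartilage, smooth muscle and Schwann cell genes separate the groups in one direction. Lepr, Cxcl12, Kitl, Adipoq and the pericyte gene Pdgfrb separate them in the other, and Runx2 and Cdh2 overlap.

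Cartilage genes gave the list with the highest median. Of 30 tested members, 29 were higher in Ng2-RFP cells and 1 lower, with a median difference of 6.05. In Lepr libraries 6 members were listed at 0 throughout, and the median without them was also 6.05. Col2a1 (chr15:97975602-98004695), the main collagen of cartilage, had 1379, 989.5, 1201 and 1314 FPKM in Ng2-RFP libraries and 0.115 to 0.928 FPKM (median 0.674) in Lepr libraries. It differed by 9.61 ± 0.26 (adjusted p = 6.5e-26).

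Chad, chondroadherin, a leucine-rich matrix protein (chr11:94565047-94569127), had 1189.7, 661, 694 and 1123 FPKM in Ng2-RFP cells and at most 0.028 FPKM in Lepr cells, a difference of 9.78 ± 0.25 (adjusted p = 9.7e-27). Replicates 1 and 4 stood above replicates 2 and 3. Lect1, chondromodulin, an inhibitor of vessel growth in cartilage, was at 974 ± 137 against 0.632 ± 0.49 FPKM and differed by 9.27 ± 0.32. The gene listed as 3110079O15Rik, named Snorc in GENCODE, was at 1020.5 ± 133 against 0.0187 ± 0.0457 FPKM, with 5 of 6 Lepr libraries at 0, and differed by 9.96 ± 0.16.

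Collagen type X marks hypertrophic chondrocytes, which border on forming bone. Col10a1 (chr10:34389981-34397085) had 434, 494, 525 and 469 FPKM in Ng2-RFP libraries and 0 to 0.068 FPKM (median 0.0265) in Lepr libraries, so the groups lay far apart. The difference was 8.87 ± 0.47 (adjusted p = 9.6e-18). Its exons overlap those of Nt5dc1 on the opposite strand, and no source used here says whether the counting used strand. Ihh, the hedgehog ligand made by chondrocytes leaving proliferation, had 18.0, 10.1, 9.33 and 15.8 FPKM in Ng2-RFP cells and was listed at 0 in every Lepr library. So were Col9a1, at 194 ± 15.4 FPKM in Ng2-RFP cells, and Epyc, epiphycan, at 92.9 ± 9.8 FPKM, as well as Matn1, Ucma and Susd5. Hapln1, the link protein of cartilage aggrecan, was at 131 ± 12.5 against 0.00933 ± 0.00935 FPKM, and the type IX chains Col9a2 and Col9a3 differed by 6.04 ± 0.19 and 8.32 ± 0.27.

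The start regions of 7 genes are shown: the 6 of the 12 largest rises by the naming rule that have an entry in the RefSeq promoter table, and Adipoq, an abundant gene that was lower. Each run is the 250 bases before the RefSeq transcription start (GRCm38.p6), read 5′ to 3′ on the gene's strand, with the motif TATAAA in capitals. Lect1 is listed there as Cnmd. On the minus strand lie Bglap at chr3:88384467-88384716, Lect1 at chr14:79662184-79662433, Ifitm5 at chr7:140950244-140950493 and Acta2 at chr19:34255374-34255623. On the plus strand lie Chad at chr11:94564797-94565046, Col10a1 at chr10:34389731-34389980 and Adipoq at chr16:23146286-23146535.
Bglap: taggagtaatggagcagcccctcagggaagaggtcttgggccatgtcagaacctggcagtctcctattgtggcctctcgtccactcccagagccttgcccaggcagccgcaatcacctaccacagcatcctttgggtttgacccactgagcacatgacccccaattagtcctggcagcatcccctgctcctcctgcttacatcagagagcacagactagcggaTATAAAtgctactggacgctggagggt
Chad: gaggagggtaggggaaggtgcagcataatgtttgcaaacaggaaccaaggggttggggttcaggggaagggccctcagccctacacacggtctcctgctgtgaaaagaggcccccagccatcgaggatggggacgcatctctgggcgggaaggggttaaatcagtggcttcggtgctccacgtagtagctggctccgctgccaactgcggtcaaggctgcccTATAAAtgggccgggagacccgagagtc
Lect1: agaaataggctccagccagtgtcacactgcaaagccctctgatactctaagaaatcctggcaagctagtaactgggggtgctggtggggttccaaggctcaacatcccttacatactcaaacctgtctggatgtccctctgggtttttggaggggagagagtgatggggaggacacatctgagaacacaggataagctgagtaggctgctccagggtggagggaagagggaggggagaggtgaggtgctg
Col10a1: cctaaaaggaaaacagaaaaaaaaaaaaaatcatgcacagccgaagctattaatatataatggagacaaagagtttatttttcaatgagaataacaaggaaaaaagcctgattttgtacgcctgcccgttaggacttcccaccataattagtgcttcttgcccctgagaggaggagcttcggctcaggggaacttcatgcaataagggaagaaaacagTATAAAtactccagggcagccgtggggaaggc
Ifitm5: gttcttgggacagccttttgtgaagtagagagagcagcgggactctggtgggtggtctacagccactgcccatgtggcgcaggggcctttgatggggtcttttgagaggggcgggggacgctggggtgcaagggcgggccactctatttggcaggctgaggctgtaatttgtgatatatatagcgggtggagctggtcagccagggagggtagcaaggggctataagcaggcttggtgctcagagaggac
Acta2: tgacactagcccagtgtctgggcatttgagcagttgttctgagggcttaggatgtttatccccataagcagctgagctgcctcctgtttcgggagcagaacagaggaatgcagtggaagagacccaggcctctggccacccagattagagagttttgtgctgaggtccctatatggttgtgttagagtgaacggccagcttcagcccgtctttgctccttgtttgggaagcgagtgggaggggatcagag
Adipoq: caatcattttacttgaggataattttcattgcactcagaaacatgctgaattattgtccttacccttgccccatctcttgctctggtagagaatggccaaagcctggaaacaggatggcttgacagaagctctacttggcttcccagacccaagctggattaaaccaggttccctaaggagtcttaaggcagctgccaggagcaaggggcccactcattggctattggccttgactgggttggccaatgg
In Bglap the motif begins 27 bases before the start, in Chad 28 and in Col10a1 32, and the windows of Lect1, Ifitm5, Acta2 and Adipoq hold none on this strand. Searched on both strands, TATAAA was in 12.4% of all 32851 promoter windows of the RefSeq table, and on the gene's strand at 35 to 20 bases before the start in 1.84% of them. Of the 12 largest rises, 6 genes had a promoter entry, and 3 of these 6 held it in that narrow window. Of the 12 largest falls, 5 genes had an entry with 6 promoters, of which 0 held it there and 2 held it on either strand anywhere. A match is a description of letters, not of a binding site.

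The regulators of cartilage differed less than its matrix. Sox9, the main transcription factor of chondrocytes, was at 20.3 ± 3.28 FPKM in Ng2-RFP and 4.74 ± 0.983 FPKM in Lepr cells (1.90 ± 0.22, adjusted p = 7.8e-09). Its partners Sox5 and Sox6 were at 7.83 against 1.48 and at 4.10 against 1.43 FPKM. Sox6 had 5.36, 2.33, 3.42 and 5.29 FPKM in Ng2-RFP libraries, and the highest Lepr library, at 4.28 FPKM, lay within that range. Prg4, lubricin of the joint surface, was the member that was lower in Ng2-RFP cells, at 21.2 ± 2.85 against 44.7 ± 5.25 FPKM (-1.04 ± 0.26, adjusted p = 0.0017).

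Over all collagens, 27 of 38 tested genes were higher in Ng2-RFP cells and 3 lower, with a median difference of 1.72, or 1.56 without the 2 genes listed at 0 in Lepr cells. Besides types I, II, IX and X, the type XI chains Col11a1 and Col11a2 differed by 6.49 ± 0.14 and 6.78 ± 0.21, and Col6a3 by 3.72 ± 0.29. The basement membrane chains Col4a1 and Col4a2 went the other way, at 15.8 ± 0.405 against 44.5 ± 2.03 FPKM and at 11 ± 1.33 against 26.5 ± 3.63 FPKM. Col6a1 and Col6a2, the partners of Col6a3 in type VI collagen, were not called, but Col6a1 was lower in the fit of these 10 libraries alone (-0.55, adjusted p = 0.0025). The third gene that was lower, Col23a1, was below 1 FPKM in both groups on average.

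The machinery that modifies and secretes collagen was higher in part. Of 37 tested genes 21 were higher and 4 lower, with a median difference of 0.74. Pcolce2, an enhancer of procollagen cleavage, had 148, 100.02, 124 and 150.5 FPKM in Ng2-RFP libraries and at most 0.08 FPKM in Lepr libraries, while Pcolce, its paralog, was at 434 and 457 FPKM and not called. Plod2, a lysyl hydroxylase, differed by 3.25 ± 0.17, Loxl4, a collagen cross-linking oxidase, by 3.31 ± 0.18 and Colgalt2, a collagen galactosyltransferase, by 2.79 ± 0.13. Serpinh1, the collagen chaperone HSP47, differed by 1.12 ± 0.25. Loxl1, an oxidase best known for elastin, was lower, at 15.6 ± 0.956 against 67.1 ± 10.7 FPKM (-2.02 ± 0.26).

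Small leucine-rich proteoglycans, which bind collagen fibrils, split. Of 16 tested, 10 were higher and 5 lower. Dcn, decorin, had 2929.6, 3074, 3101 and 2994 FPKM in Ng2-RFP cells and 280.0 to 459 FPKM (median 419) in Lepr cells, and Lum, lumican, was at 1002 ± 20.6 against 85.4 ± 12 FPKM. Fmod and Aspn differed by 4.13 ± 0.20 and 3.92 ± 0.24. Podn, podocan, and Ogn, osteoglycin, were lower in Ng2-RFP cells by -3.78 ± 0.30 and -1.91 ± 0.28. Bgn, biglycan, was abundant in both, at 1495 ± 143 and 1842 ± 277 FPKM, and was not called.

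Matrix proteases and their inhibitors were likewise mixed, with 19 of 36 tested genes higher and 10 lower. Mmp2, a gelatinase, had 209, 179.8, 139 and 199 FPKM against 5.5 to 10.8 FPKM (median 8.47), a difference of 4.35 ± 0.22 (adjusted p = 1.4e-18). Mmp13, the collagenase of hypertrophic cartilage and bone, was at 444 ± 53.5 against 45.7 ± 17.6 FPKM. Mmp16, a membrane-bound protease, differed by 3.48 ± 0.24. Timp1 was higher by 2.37 ± 0.36 and Timp4 lower at -1.93 ± 0.21, both of them protease inhibitors. When genes with a mean under 5 FPKM were left out, 9 members were higher and 9 lower.

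Genes of pericytes and smooth muscle were mostly higher in Ng2-RFP cells, with 17 of 25 tested members higher, 3 lower and a median of 1.69. The list holds Cspg4 itself. Acta2, smooth muscle actin, had 477, 380.0, 358 and 478 FPKM in Ng2-RFP libraries and 0.123 to 1.17 FPKM (median 0.861) in Lepr libraries. It differed by 7.92 ± 0.35 (adjusted p = 5.1e-20). Tagln, an actin-binding protein of smooth muscle, was at 249.98 ± 25.9 against 6.07 ± 0.81 FPKM, and Myh11, its myosin heavy chain, at 14.3 ± 3.41 against 0.285 ± 0.153 FPKM.

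Pericyte genes gave both directions. Rgs5, a regulator of G-protein signalling in pericytes, had 81.2, 76.4, 84.0 and 82.1 FPKM against 1.18 to 2.9 FPKM, and differed by 4.80 ± 0.31 (adjusted p = 2.4e-15). Mcam (CD146) differed by 3.89 ± 0.24 and Sncg, gamma-synuclein, by 6.56 ± 0.27. Pdgfrb, the PDGF receptor on which pericytes depend, was lower, with 12.8, 12.5, 12.4 and 13 FPKM in Ng2-RFP and 51.5 to 64.1 FPKM (median 55.7) in Lepr cells (-2.08 ± 0.21, adjusted p = 2.4e-10). Notch3 was lower by -0.74 ± 0.15 and Mylk, the myosin light chain kinase, by -1.03 ± 0.30. Myl9 was at 431 ± 65.3 and 455 ± 113 FPKM, and Des, desmin, at 8.14 and 12.4 FPKM, neither of them called.

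Transcripts of Schwann cells and glia were mostly higher in Ng2-RFP libraries, though some were also plentiful in Lepr libraries. The 20 genes of the list summed to 835 to 937 FPKM in Ng2-RFP and 287 to 590 FPKM in Lepr libraries. Of 19 tested genes 17 were higher and 0 lower, with a median of 2.16, or 2.46 without the 3 genes listed at 0 in Lepr cells. Mbp, myelin basic protein, had 121, 126, 83.6 and 119.6 FPKM in Ng2-RFP libraries and 0.6 to 1.15 FPKM (median 0.824) in Lepr libraries, and the groups lay far apart. The difference was 5.93 ± 0.23 (adjusted p = 9.3e-22).

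The factor Sox10, which directs Schwann cell identity, had 6.50, 6.21, 4.57 and 6.10 FPKM in Ng2-RFP libraries and was listed at 0 in all 6 Lepr libraries. Foxd3, a neural crest factor, at 1.58 ± 0.578 FPKM, and Gap43, at 2.93 FPKM, were also listed at 0 in Lepr cells. Kcna1, a potassium channel of myelinated axons and glia, had 11.7, 17.0, 11.7 and 12.1 FPKM against at most 0.009 FPKM. Cdh19, a cadherin of Schwann cells, differed by 3.89 ± 0.20. S100b and Pmp22, 2 genes also made by other stromal cells, were not called, at 56.9 and 50.2 FPKM and at 459.7 and 336 FPKM.

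Fibroblast, tendon and periosteum genes were mostly higher too, with 18 of 26 tested members higher, 2 lower and a median of 1.82. Postn, periostin, had 215, 243, 215 and 215 FPKM against 0.415 to 2.17 FPKM (median 1.44), and Fn1, fibronectin, was at 425 ± 79.0 against 10.3 ± 4.83 FPKM. The tendon genes Tnmd, tenomodulin, and Scx, scleraxis, were at 41.9 ± 3.16 against 0.271 ± 0.536 FPKM and at 10.6 ± 0.558 against 0.0508 ± 0.111 FPKM. Thbs4, a thrombospondin of tendon, differed by 3.31 ± 0.16. Egfr, the EGF receptor, was lower (-2.16 ± 0.22), and Ctsk, cathepsin K, was at 179 and 180.2 FPKM and was not called.

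Of 19 tested skeletal muscle genes, 6 (31.6%) were higher, 1 (5.3%) lower and 12 not called, with a median difference of 0.08. Among all tested genes 16.1% were higher and 14.1% lower. Mb, Myf5, Myh2, Pax7 and Pvalb were listed at 0 in every Ng2-RFP library. The summed level of the list was 353 to 420.4 FPKM in Ng2-RFP and 86.3 to 201 FPKM in Lepr libraries. Tnni2, a fast troponin I, had 55.7, 47.5, 46.8 and 55.5 FPKM in Ng2-RFP libraries and 0 to 0.217 FPKM in Lepr libraries. The fast myosin light chain Myl1 was at 8.70 ± 2.82 against 0.27 ± 0.304 FPKM. The contribution of muscle cells to these values was not tested.

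**Figure D3:**
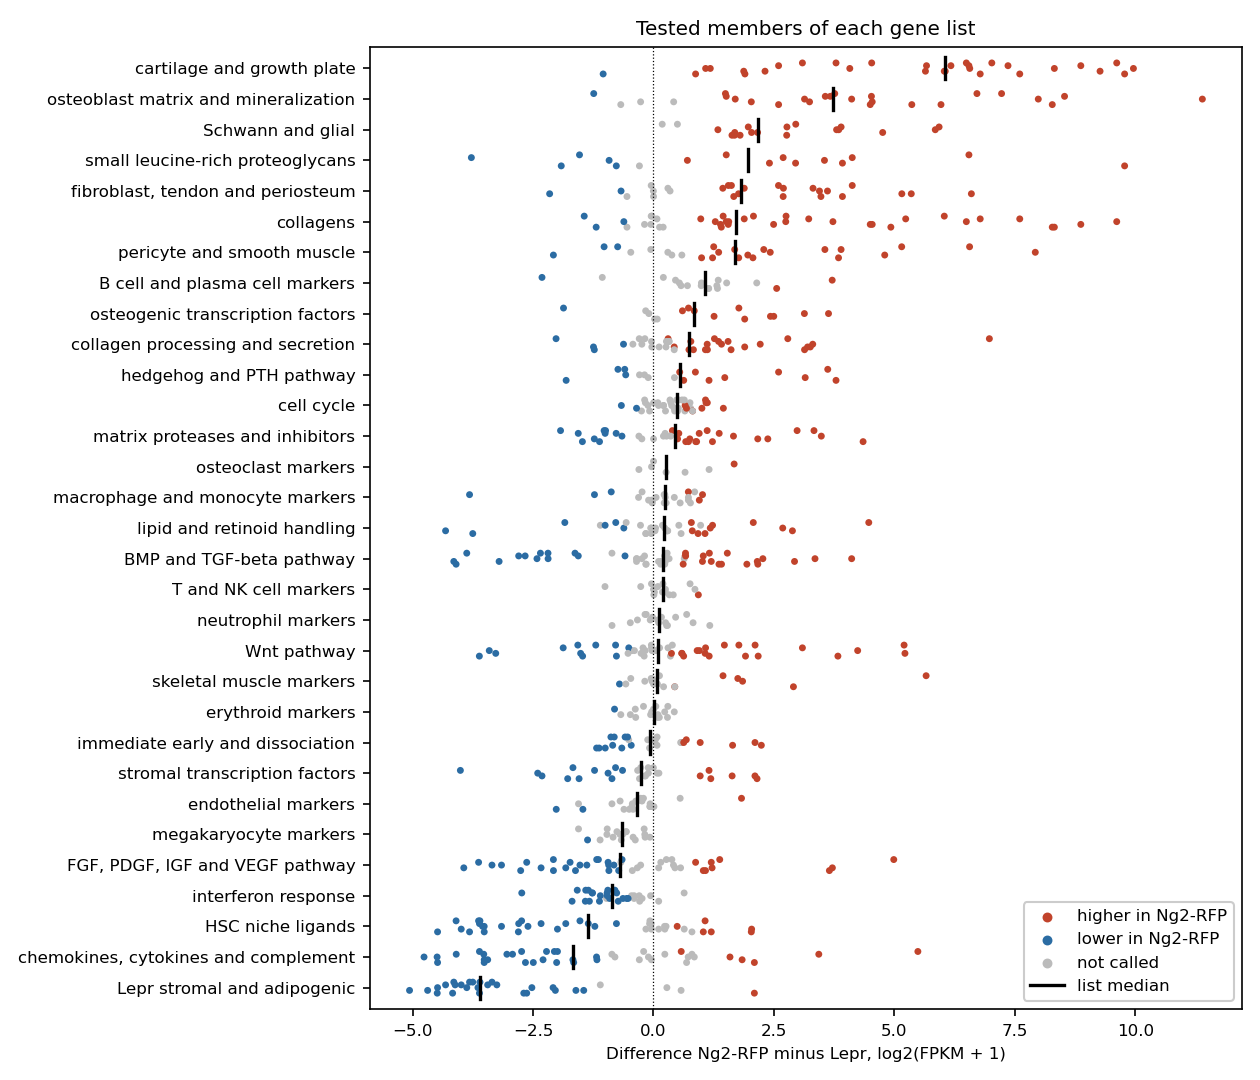
Each point is a tested member of 1 of 31 gene lists, placed on the horizontal axis by its difference Ng2-RFP minus Lepr on the log2(FPKM + 1) scale, in red where called higher, blue where called lower and grey where not called, with the list's median as a black bar. Lists are ordered by median, from the cartilage list at 6.05 to the Lepr stromal and adipogenic list at -3.60.

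The genes of the Lepr stromal and adipogenic list were lower in Ng2-RFP cells in 25 of 29 tested cases and higher in 1, with a median of -3.60. This list holds Lepr, the sorting marker. Adipoq (chr16:23146536-23158028), the adipokine adiponectin, had 126, 111, 119 and 129 FPKM in Ng2-RFP libraries and 3764 to 4825 FPKM (median 3807) in Lepr libraries, a difference of -5.06 ± 0.31 (adjusted p = 7e-16). Lpl, the lipase that frees fatty acids from lipoproteins, was at 52.4 ± 9.42 against 727 ± 172 FPKM, and Apoe, apolipoprotein E, at 441 ± 53.3 against 9113 ± 2887 FPKM.

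The regulators of fat formation were lower as well. Pparg, the main factor of adipogenesis, was at 13.1 ± 3.04 against 58.2 ± 7.74 FPKM, and Cebpa, its partner, had 1.59, 1.17, 1.69 and 1.24 FPKM against 12.3 to 17.8 FPKM (median 14.4). They differed by -2.08 ± 0.31 and -2.69 ± 0.13. Hp, haptoglobin, differed by -4.69 ± 0.28, Esm1, a secreted proteoglycan, by -4.49 ± 0.28 and Grem1, a BMP antagonist, by -4.14 ± 0.23. Not every gene of the list followed. Fabp4, a fatty acid carrier, was at 133 ± 14 and 104.2 ± 55.2 FPKM and not called. Cfd, adipsin, was higher in Ng2-RFP cells at 19.8 ± 10.3 against 5.18 ± 4.86 FPKM (adjusted p = 0.011), with overlapping groups. The call on Cfd was lost without Ng2-RFP replicate 2 (adjusted p = 0.053) and with a pseudocount of 0.1 (adjusted p = 0.063). Pdzrn4, a ubiquitin ligase of the list, differed by -3.25 ± 0.12.

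Among 27 tested stromal transcription factors, 11 were lower in Ng2-RFP cells, 6 higher and 10 not called, with a median of -0.26. Ebf3 and Ebf1, which keep the marrow stroma open for blood formation in the mouse, were lower. Ebf3 had 3.37, 2.60, 3.87 and 3.42 FPKM against 55.6 to 88.5 FPKM (median 62.2), a difference of -4.01 ± 0.23 (adjusted p = 8.7e-17), and Ebf1 differed by -2.31 ± 0.35. Foxc1, a factor needed for the mouse stem cell niche, was at 13.7 ± 1.86 against 50.5 ± 12.4 FPKM, Runx1 at 18.0 ± 0.929 against 59.8 ± 5.34 FPKM and Snai2 at 44.5 ± 5.36 against 242 ± 41.8 FPKM. Prrx2 and Nr2f2 were higher by 2.15 ± 0.23 and 2.11 ± 0.23, and Gli1, the hedgehog effector, by 1.15 ± 0.13. Prrx1, a marker of limb mesenchyme, was at 26.9 and 32.4 FPKM and not called.

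Ligands known to act on blood stem cells were lower in Ng2-RFP cells for 22 of 39 tested genes and higher for 6, with a median of -1.35. Cxcl12 (chr6:117168535-117181367), the chemokine that retains stem cells in marrow, had 783, 663, 639 and 770.3 FPKM in Ng2-RFP libraries and 12650.0 to 18106 FPKM (median 16171) in Lepr libraries. Kitl (chr10:100015630-100100416), Kit ligand, had 17.5, 18.3, 17.2 and 18.6 FPKM against 266 to 331 FPKM (median 302). The differences were -4.48 ± 0.37 (adjusted p = 2.2e-12) and -3.99 ± 0.23 (adjusted p = 1.5e-16), so both genes remained measurable in Ng2-RFP cells at a far lower level.

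Further ligands followed the same direction. Vcam1, an adhesion molecule for blood cells, was at 45.6 ± 5.35 against 657 ± 73.7 FPKM, Il7, the cytokine of lymphoid precursors, at 5.55 ± 1.06 against 79.1 ± 12.6 FPKM and Angpt1, the Tie2 ligand, at 3.49 ± 0.39 against 52.1 ± 9.48 FPKM. Bmp6, which regulates iron through liver hepcidin, had 4.08, 4.89, 4.93 and 3.84 FPKM against 79.3 to 105 FPKM. Vegfc, a growth factor of lymphatic vessels, differed by -3.63 ± 0.14 and Csf1, the macrophage growth factor, by -2.74 ± 0.21.

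The 6 ligands that were higher in Ng2-RFP cells were Spp1, Ptn, Tgfb1, Jag1, Fgf1 and Wnt5a. Ptn, pleiotrophin, had 13, 12.6, 7.7 and 12.8 FPKM against 1.41 to 4.62 FPKM (median 1.70) and differed by 2.04 ± 0.26 (adjusted p = 5.9e-08). Tgfb1 was at 18.8 ± 1.54 against 7.91 ± 2.49 FPKM, and Jag1, a Notch ligand, at 5.4 ± 0.835 against 3.59 ± 0.793 FPKM (0.49 ± 0.18, adjusted p = 0.033). The call on Jag1 was lost without Ng2-RFP replicate 1, 3 or 4 or Lepr replicate 1 or 4 (adjusted p = 0.063, 0.12, 0.054, 0.065 and 0.093), and with a pseudocount of 0.1 (adjusted p = 0.071). Cdh2, the N-cadherin after which other populations of the study are named, had 54.2, 59.96, 56.6 and 53.6 FPKM in Ng2-RFP and 50.1 to 64.6 FPKM (median 60.2) in Lepr libraries. These ranges overlapped and Cdh2 was not called (-0.04 ± 0.13, adjusted p = 0.87). Thpo, thrombopoietin, was below 1 FPKM in every library.

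**Figure D4:**
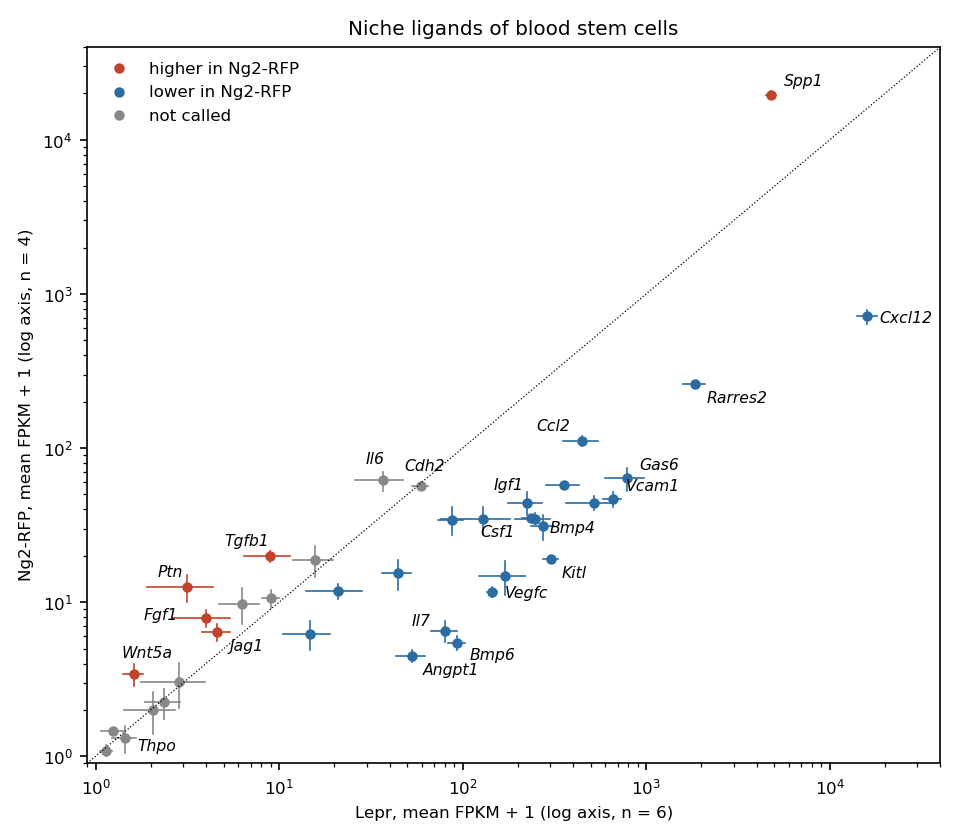
Mean FPKM + 1 of the 39 tested ligands in Lepr cells (horizontal, n = 6) and Ng2-RFP cells (vertical, n = 4), both on log axes, with bars of 1 SD and a dotted line of equality. The 22 ligands lower in Ng2-RFP cells lie below the line in blue, with Cxcl12 and Kitl among them, the 6 higher ones above it in red, and Cdh2 close to it.

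Chemokines, cytokines and complement were also more often lower, in 23 of 40 tested genes with 6 higher. Il34, a ligand of the macrophage receptor CSF1R, had 8.24, 5.54, 5.04 and 8.27 FPKM against 165 to 261 FPKM (median 203), and Il1rn, the interleukin-1 receptor antagonist, was at 7.64 ± 1.83 against 191 ± 20.7 FPKM. The complement genes C3 and C1ra differed by -2.66 ± 0.29 and -3.04 ± 0.18. Ccl11, eotaxin, was the clearest exception, with 53.3, 44.2, 49.5 and 48.3 FPKM in Ng2-RFP and 0 to 0.328 FPKM in Lepr libraries (5.49 ± 0.25, adjusted p = 8.1e-20). Cd59a, which protects cells from complement, was higher by 3.43 ± 0.35. Il6 was at 60.6 ± 8.77 and 35.6 ± 10.6 FPKM, without overlap but not called (adjusted p = 0.17), and was called in the fit of these 10 libraries alone (adjusted p = 0.03).

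In the BMP and TGF-beta pathway, 18 of 48 tested genes were higher and 13 lower. The ligand Bmp3 had 19.0, 15.2, 18.2 and 18.9 FPKM in Ng2-RFP and 0.025 to 0.156 FPKM in Lepr cells, and Bmp8a differed by 3.35 ± 0.31 and Bmp7 by 2.15 ± 0.20. Bmp4 and Bmp6 went down by -2.80 ± 0.19 and -4.10 ± 0.17. Of the extracellular antagonists, Nog, noggin, was higher (1.94 ± 0.12), while Grem1 and Fst, follistatin, were lower, the latter at 13.1 ± 2.71 against 127 ± 11 FPKM. The co-receptor Tgfbr3 differed by -2.66 ± 0.16. The list's median of 0.19 turned to -0.25 when genes with a mean under 5 FPKM were left out.

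The Wnt list held 46 tested genes, with 19 higher and 11 lower. Secreted antagonists stood out at both ends. Dkk1 had 41.7, 39.3, 42.4 and 40.4 FPKM in Ng2-RFP and 0.046 to 0.272 FPKM in Lepr cells (5.22 ± 0.18, adjusted p = 2e-23). Sfrp5 and Sostdc1, at 18.1 ± 2.29 and 13.6 ± 2.54 FPKM in Ng2-RFP cells, reached at most 0.02 and 0.083 FPKM in Lepr cells. Sfrp4 was lower, at 196 ± 24.0 against 1908 ± 247 FPKM, and so were the Wnt-enhancing R-spondins Rspo2 (-3.41 ± 0.20) and Rspo3 (-1.87 ± 0.17). Axin2, a common Wnt target, was at 0.503 and 0.52 FPKM and not called. The median of 0.09 turned to -0.51 without genes of a mean under 5 FPKM.

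Of 17 tested genes of hedgehog and PTH signalling, 9 were higher and 4 lower. Pth1r, the receptor for parathyroid hormone, had 330.3, 257, 227 and 312 FPKM against 31.0 to 72.7 FPKM (median 43.7), a difference of 2.60 ± 0.25 (adjusted p = 8.9e-11), and its ligand gene Pthlh was at 16.2 ± 4.06 against 0.435 ± 0.495 FPKM. Tnfrsf11b, the decoy receptor osteoprotegerin, was higher (3.15 ± 0.29), and Tnfsf11, the osteoclast factor RANKL that it binds, was lower, at 8.16 ± 1.91 against 30.8 ± 4.07 FPKM. Ptch1, the hedgehog receptor, was not called. Without Ng2-RFP replicate 2 only 2 members were called lower, and the median of 0.54 turned to -0.58 without genes of a mean under 5 FPKM.

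Growth factor genes of the FGF, PDGF, IGF and VEGF families were more often lower, in 22 of 42 tested cases with 9 higher. Igfbp3 and Igfbp4, binding proteins of insulin-like growth factors, differed by -3.94 ± 0.23 and -3.35 ± 0.35, while Igfbp6 was at 189 ± 18.0 FPKM in Ng2-RFP and 5.50 ± 3.06 FPKM in Lepr cells. Igf1 itself was lower, at 43.2 ± 7.44 against 223 ± 46.7 FPKM. Among ligands, Pdgfc was higher (3.71 ± 0.18) and Fgf7 lower (-3.15 ± 0.25). The receptors Fgfr1 and Fgfr2 went in opposite directions, by 1.22 ± 0.17 and -1.38 ± 0.21.

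Lipid and retinoid genes showed no shared direction, with 10 of 34 tested higher, 6 lower and 18 not called. Fabp3, a fatty acid carrier of muscle, had 27.0, 22.4, 25.8 and 23.3 FPKM in Ng2-RFP and 0 to 0.333 FPKM in Lepr libraries, and Rbp4, the retinol carrier of plasma, was at 56.7 ± 1.73 against 6.97 ± 1.75 FPKM. Scd2, a desaturase, differed by 2.07 ± 0.17.

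Genes of cell state were mixed. Of 37 cell cycle genes 8 (21.6%) were higher, 2 (5.4%) lower and 27 not called, against 16.1% higher and 14.1% lower of all tested genes. Cenpf, a kinetochore protein, was higher by 1.45 ± 0.32, Top2a by 1.005 ± 0.32 and Racgap1 by 0.68 ± 0.16, and Mcm4, of the replicative helicase, was lower by -0.67 ± 0.15. Mki67 was at 7.64 ± 0.578 and 5.44 ± 1.16 FPKM and not called, except in the fit of these 10 libraries alone (adjusted p = 0.034). Without Ng2-RFP replicate 3 the call on Top2a was lost (adjusted p = 0.071). Among 32 interferon response genes 0 were higher and 22 lower, with a median of -0.87. Psmb8, of the immunoproteasome, was at 80.5 ± 6.01 against 266 ± 53.6 FPKM, and Rtp4, an interferon-induced chaperone, had 16.4, 17.8, 16.6 and 18.1 FPKM against 35.2 to 60.8 FPKM.

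Immediate early genes, which respond to tissue digestion, were called in both directions, with 7 of 25 higher and 10 lower. Fos, Egr1 and Ier5 were lower, by -0.66 ± 0.21, -0.85 ± 0.22 and -1.18 ± 0.23, and the call on Fos was lost without Ng2-RFP replicate 3 (adjusted p = 0.058). Atf3 had 355, 347, 286 and 339 FPKM in Ng2-RFP against 77.2 to 131 FPKM in Lepr libraries and was higher by 1.64 ± 0.25. The heat shock genes Hspa1a and Hspa1b, near-identical copies with an uncertain split, differed by 2.24 ± 0.27 and 2.11 ± 0.32. The part of the digestion in these values was not tested.

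Markers of blood cells were present in both groups and mostly not called, as were most tested genes. Of all genes tested, 16.1% were higher and 14.1% lower. The 17 neutrophil markers summed to 13372 to 21387 FPKM in Ng2-RFP and 12534 to 20908 FPKM in Lepr libraries, with 0 called in either direction, and S100a8, a neutrophil calcium-binding protein, was at 6959 ± 1864 and 5742 ± 1457 FPKM. The erythroid markers summed to 2208 to 3444 and 2104 to 3152 FPKM, with 1 of 17 called, Epor. The macrophage markers summed to 1053 to 1568 and 1529.9 to 2228 FPKM. Of these 24 markers, 3 were higher and 3 lower (12.5% each), near the shares of all tested genes. Vcam1, one of the 3 lower, is also a gene of Lepr cells. Epor, the erythropoietin receptor, was lower by -0.81 ± 0.29, a call that was lost without Ng2-RFP replicate 1, 2 or 4 or Lepr replicate 2, 3 or 4 (adjusted p = 0.075, 0.059, 0.076, 0.054, 0.062 and 0.066), and with a pseudocount of 0.1 (adjusted p = 0.056).

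Calls on lymphoid, endothelial, osteoclast and megakaryocyte markers are set against 16.1% higher and 14.1% lower of all tested genes. The osteoclast list, with 14.3% higher, and the B cell list, with 11.1% higher, lay near the former share. The B cell markers summed to 376 to 641 FPKM in Ng2-RFP and 229 to 414 FPKM in Lepr libraries. Of 18 tested, 2 were higher and 1 lower, with a median difference of 1.07. The groups did not overlap for 10 of these 18, against 26.7% of all tested genes. The pre-B genes Igll1 and Vpreb1 were higher in Ng2-RFP cells, at 14.6 ± 2.26 against 0.197 ± 0.181 FPKM and at 7.04 ± 1.41 against 0.364 ± 0.199 FPKM. The T and NK markers summed to 22.9 to 46.3 and 15.3 to 68.8 FPKM with 1 of 16 called, Cd3d, whose call was lost without Ng2-RFP replicate 2 or 3 (adjusted p = 0.091 and 0.059). Endothelial markers summed to 105 to 118 and 67.6 to 203 FPKM, the latter in Lepr replicate 3 and at most 128 FPKM without it, with 1 of 22 higher and 2 lower. Of these, Cldn5, a tight junction protein, had 0, 0.023, 0.121 and 0 FPKM in Ng2-RFP and 0.373 to 7.09 FPKM in Lepr cells. Stab2 of sinusoidal endothelium was lower at -1.47 ± 0.54, a call kept only without Lepr replicate 1 or 4 among the 10 fits that leave out a library, with adjusted p = 0.059 to 0.085 in the others. Among 7 osteoclast markers only Nfatc1 was called (1.67 ± 0.15). The only megakaryocyte marker called was Selp, at 0.596 against 4.56 FPKM, and it was no longer called without Lepr replicate 3 (adjusted p = 0.070), without Ng2-RFP replicate 1 (adjusted p = 0.056) or in the fit of these 10 libraries alone (adjusted p = 0.1). The part of such cells in the results was not tested.

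The 12 largest rises and 12 largest falls by the naming rule lay mostly in the groups above. Of the rises, Car3, a carbonic anhydrase of muscle and fat, had 1011, 1039.6, 893 and 985 FPKM against 0.754 to 3.13 FPKM, a difference of 8.47 ± 0.55 (adjusted p = 2.5e-15). Cthrc1, a secreted protein of collagen-making cells, was at 422 ± 27.6 against 0.305 ± 0.189 FPKM. Of the falls, Serpina3c, a serine protease inhibitor, had 3.52, 2, 1.38 and 3.42 FPKM against 96.4 to 145 FPKM (-5.19 ± 0.25, adjusted p = 1.2e-18). Crym, a thyroid hormone-binding protein, and Slc26a7, an anion transporter, differed by -5.18 ± 0.24 and -5.17 ± 0.22. The kininogens Kng1 and Kng2, related copies, were at 15.9 and 14 FPKM against 462 and 357 FPKM. The largest fall, Mir8114, and another, n-R5s54, are very short genes whose FPKM are uncertain, and Mir8114 overlaps exons of Glul and Teddm2.

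Ng2-RFP cells were then set beside the other niche populations of the same table. Their mean profile was nearest to that of Col2.3-GFP cells, a reporter of osteoblasts (Pearson's r of 0.927 across genes), while the Lepr profile was nearest to Nestin-GFP cells (0.974), and the Ng2-RFP and Lepr profiles correlated at 0.894. Over the 10 populations Bglap was at 21402 ± 2055 FPKM in Ng2-RFP cells, 7954 in Col2.3-GFP, 150.5 in Ncad_bone and 127 in Ncad_marrow cells, and at 20.6 FPKM or less elsewhere. Acta2 followed the same order, at 423, 186 and 84.4 FPKM in the first 3 and at most 4.85 FPKM in the rest. Chad was highest in Ncad_bone cells at 1816 ± 883 FPKM (SD), followed by Ng2-RFP cells at 917 ± 278 FPKM and Col2.3-GFP cells at 789.8 ± 393 FPKM, and the spreads of neighbours in this order overlapped. Kitl was highest in Lepr cells at 301 ± 27.7 FPKM, a spread that overlapped that of Ncad_bone cells at 250.5 ± 42.6 FPKM. Cxcl12 lay between 14534 and 17350.0 FPKM in Ncad_bone, Ncad_marrow, Lepr and Nestin-GFP cells, whose spreads overlapped.

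**Figure D5:**
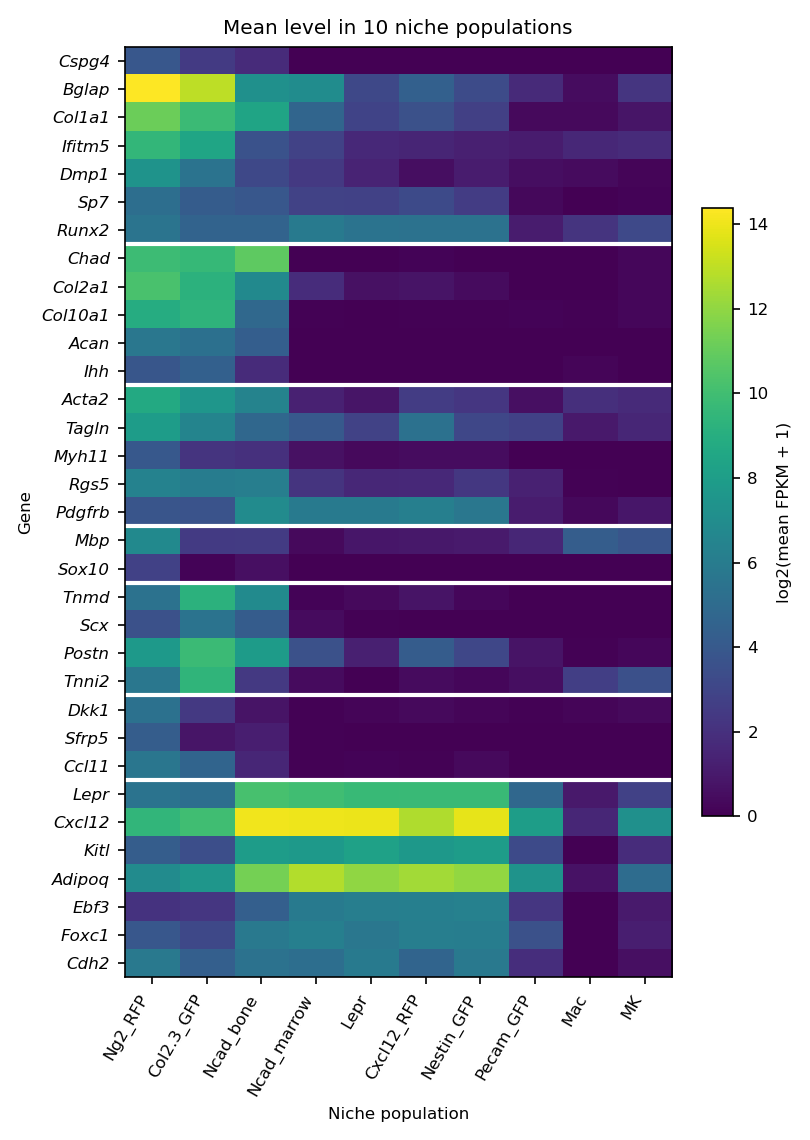
Colour gives the log2 of the mean FPKM + 1 of 33 genes (rows, in blocks for bone, cartilage, smooth muscle, Schwann cell, tendon and muscle, secreted factors and Lepr stroma) in 10 niche populations (columns). Bone and cartilage genes are bright in Ng2_RFP and Col2.3_GFP, with Chad and others also in Ncad_bone, Mbp and Sox10 are highest in Ng2_RFP, and the Lepr stroma genes are bright from Ncad_bone to Nestin_GFP. The bone block also holds Cspg4, and the Lepr stroma block holds Cdh2, which was not called between Ng2-RFP and Lepr cells.

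A contrast of Ng2-RFP with Col2.3-GFP cells was fitted in the same model. It shares the Ng2-RFP libraries with the contrast to Lepr cells, so the values are only set side by side. Of 18972 genes 31.1% were called, 11.3% higher and 19.8% lower in Ng2-RFP cells. With median-of-ratios scaling the split changed from 2147 higher and 3758 lower to 2854 and 2700, and the median of all genes moved by 0.09. The fibroblast list then held 17 lower and 1 higher genes, the Schwann cell list 19 higher and the muscle list 19 lower.

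Of 26 osteoblast matrix genes 14 were higher and 1 lower against Col2.3-GFP cells, with a median of 1.02, and of 30 cartilage genes 15 were higher and 4 lower, with a median of 0.68. With median-of-ratios scaling 16 and 20 were higher. Some of the leading genes were not called. Bglap differed by 1.48 ± 0.77, Chad by 0.33 ± 0.28 and Col10a1 by -0.43 ± 0.51, none of them called (adjusted p = 0.15, 0.40 and 0.58), against 11.39, 9.78 and 8.87 to Lepr cells. Col1a1 and Col2a1 were higher by 1.33 ± 0.31 and 1.01 ± 0.29. Lepr, Cxcl12 and Adipoq were not called against Col2.3-GFP cells, where they stood at 35.5, 1000.0 and 184 FPKM.

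Markers of other cells and of cell state moved in that contrast as well, and their part in its results was not tested. All 17 tested neutrophil markers were higher, with a median of 2.42, and so were 12 of 24 macrophage markers and 23 of 25 immediate early genes. Lower were 17 of 22 endothelial, 11 of 17 erythroid and 36 of 37 cell cycle genes.

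Most Schwann cell genes were higher in both contrasts. Of the 19 tested, 18 were higher against Col2.3-GFP cells, with a median of 1.71. Mbp differed by 4.39 ± 0.25 (adjusted p = 1.9e-16), Cdh19 by 3.16 ± 0.22 and Sox10 by 2.60 ± 0.09. Dkk1, Sfrp5 and Sostdc1 were also higher in Ng2-RFP than in Col2.3-GFP cells, by 3.01 ± 0.19, 3.54 ± 0.16 and 3.74 ± 0.18. Acta2 and Myh11 were higher by 1.22 ± 0.38 and 1.75 ± 0.16.

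Fibroblast, tendon and muscle genes went the other way against Col2.3-GFP cells. Of the 26 tested fibroblast, tendon and periosteum genes 20 were lower and 1 higher, and all 19 tested muscle genes were lower. Tnmd was at 602 FPKM in Col2.3-GFP, 41.9 FPKM in Ng2-RFP and 0.271 FPKM in Lepr cells, and Tnni2 at 674, 51.4 and 0.0362 FPKM. For Tnmd and Tnni2 Ng2-RFP cells lay between the other 2 populations, which did not hold for every gene of these lists: Egfr was lower in Ng2-RFP than in Lepr cells, and Mb and Pvalb were listed at 0 in every Ng2-RFP library.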

How the data were processed

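Per the labels, RNA of sorted cells was made into libraries with an ultra-low-input SMARTer kit. Per the submitters' processing notes, bcl2fastq 2.18, TopHat2 2.0.13 and Cufflinks 2.2.1 were used with mm10. The deposited values are the authors' FPKM per gene and library, and no source used here says how transcripts were summed or whether strand was used. Depth is known only in relative terms, from the ratios of low FPKM between libraries, which limits the precision of low values.

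Of 44381 genes, 28 lacked a value and were dropped. The 18972 with 3 or more niche libraries at or above 1 FPKM were fitted as log2(FPKM + 1) with limma 3.58.1 in R 4.3.3 and a mean-variance trend. The fit held all 42 libraries of 10 niche populations, which share 1 estimate of the spread, and had no replicate block. Tests were two-sided, with Benjamini-Hochberg adjustment over all tested genes and a threshold of 0.05. The fit was tested on simulated data.

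Named genes are the sorting markers, up to 4 called members with the smallest p in each of 31 lists, and the 12 largest rises and falls among called genes whose groups did not overlap and whose higher group averaged 5 FPKM or more, leaving out symbols of unnamed models (Gm or Rik names, such as 3110079O15Rik, whose rise would otherwise be among the 12). Other genes were named after their values were seen. Some genes are not reported here. The members and lists were chosen with earlier results of these data known. Alternatives were a pseudocount of 0.1, no filter, a mean of at least 5 FPKM, median-of-ratios scaling, a replicate block, a fit of only the compared groups and leaving out each library. Positions are from GENCODE M21 on mm10, and promoters from RefSeq on GRCm38.p6.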

Additional observations from a re-analysis of the deposited data

Results flagged for a closer look

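Among the genes named in the text with a group mean of at least 1 FPKM, 1 library stood far from the rest of its group, by the gap to its nearest neighbour against the group's whole range, for 18 of 197 genes in Ng2-RFP cells and 7 of 143 in Lepr cells. Chance flags about 1 in 20 groups.

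Ng2-RFP replicate 3 was low for Bgn (1279.9 FPKM), Bmp8a (9.12), Col6a2 (36.2), Mbp (83.6), Ptn (7.70), Smpd3 (49.9), Susd5 (17.8) and Vcam1 (37.7). It was high for Col4a1 (16.4 FPKM), Ddx3y (21.1) and the very short gene n-R5s54 (16.6). Ng2-RFP replicate 2 was high for Kcna1 (17.0 FPKM), Postn (243), Sox5 (11.9), Tnmd (46.6) and Twist2 (2.05) and low for Colgalt2 (6.25 FPKM), and Ng2-RFP replicate 4 was low for Mmp16 (17.4 FPKM).

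Lepr replicate 3, the library with the high megakaryocyte transcripts, was high for Selp (15.4 FPKM), Pecam1 (4.26) and Cd59a (18.3). Lepr replicate 4 was high for Slc26a7 (181 FPKM) and Sox5 (3.37), and Lepr replicate 6 for Ptn (4.62 FPKM) and Sox6 (4.28).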

How the results depend on the processing

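With only genes of a mean of at least 5 FPKM, 3180 genes were called in place of 5734, of which 1372 were higher and 1808 lower, so that the share of higher among called genes went from 53.2% to 43.1%, and against Col2.3-GFP cells 3846 genes were called in place of 5905. Fewer genes were tested there. The number called was 5528 with a pseudocount of 0.1, 6609 with no filter, 5824 with median-of-ratios scaling and 6241 in a fit of only the compared groups. Leaving out 1 library at a time gave 5006 to 5705 called genes against Lepr cells, with 2622 to 2989 higher and 2340 to 2716 lower, and 4805 to 5666 against Col2.3-GFP cells. Of the 3516 single-gene results under these alternatives, 3475 kept their side of the threshold. Direction changed in 0 results where the main or the alternative fit called the gene. Some genes called in neither fit changed sign, such as Axin2 and Ctsk.

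Replicate numbers pair no samples by the labels. Deviations from the group means of same-numbered Ng2-RFP and Lepr libraries correlated at -0.02, -0.04, 0.06 and 0.02. These values cannot tell whether same-numbered libraries were prepared together. With a replicate block 4822 genes were called, 2524 higher and 2298 lower, and 5670 against Col2.3-GFP cells. The block ended the calls on Epor, Cd3d, Stab2 and Top2a (adjusted p = 0.053, 0.055, 0.19 and 0.051), and using no filter ended that on Stab2 (adjusted p = 0.06).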
